A study of Rattus norvegicus with 11 samples.

Results

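The comparison set the 3 Krushinsky-Molodkina (KM) rats, which are prone to audiogenic seizures, against the 8 rats of the “0” and W groups as one reference. All 11 libraries of the series entered one fit with 3 groups, and the contrast was KM minus the mean of “0” and W, so that both seizure-resistant groups had equal weight. A gene was reported when all 3 KM values lay outside the range of all 8 others. Of 32883 genes in the files, 13694 reached a mean CPM (counts scaled to a common library size) of 1 over the 11 libraries and were tested, and 241 of these met the rule, 121 above and 120 below the others. As the rule reads the same counts as the contrast, the values of these genes describe KM and do not test it again.

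All animals were males aged 4 months, and each library held the inferior and superior colliculi (corpora quadrigemina) of 1 rat. KM is an inbred strain selected from Wistar rats for its audiogenic seizure proneness, and its genotype is given as prone to audiogenic epilepsy. The “0” rats (4 libraries) come from a line that was bred from KM and Wistar hybrids for the lack of seizures, was backcrossed to KM and is still under selection, and they are labelled less prone. W (4 libraries) were outbred Wistar rats that had shown no seizure, labelled wild type, so “0” shares ancestry with KM while W does not carry the KM selection. Per the study's methods, seizure testing by sound at an earlier age was done once in KM and 3 times in “0”. Sound exposure a few days before dissection was common to all 3 groups, and for W it was the seizure test. The response to sound was not common. The study scored the strongest tonic convulsions for KM and used only W and “0” rats that were not prone. The earlier testing and the seizures that sound sets off in KM differed between the groups and cannot be told apart from strain.

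An audiogenic seizure is a convulsive fit that a loud sound sets off in susceptible rodents. It begins as wild running and can pass into clonic and tonic convulsions. The inferior colliculus, the auditory centre of the midbrain roof, is the structure in which such fits start, and the superior colliculus takes part in their motor expression.

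The counts per library on genes ran from 10545964 to 15140180. One KM library stood apart in its content. In KM 3, Ttr (transthyretin, the carrier of thyroid hormone that the choroid plexus secretes into the cerebrospinal fluid) reached 6417 CPM, against 10.3 and 37.3 CPM in KM 1 and KM 2 and at most 44.5 CPM in the 8 others. All 9 choroid plexus markers with a symbol were higher in KM at p under 0.05, as were 26.3% of all genes with a symbol and 4.24% of all genes tested, and with KM 3 left out 4 of them still passed (Ttr, Kl, Kcne2 and Tmem72). The log2-fold change of Ttr went from 9.35 to 2.87 without KM 3, and that of Clic6 from 3.07 to 0.17. Folr1 and Aqp1 turned direction, from 2.08 to -0.66 and from 3.29 to -0.49. The 9 markers together made up 9188 CPM (of the library total) in KM 3 and between 161 and 292 CPM in the other 10 libraries, where Enpp2 was the most abundant, and none of them was at 0 in any library. The 10 most abundant genes took 29.2% of the counts in “0” 3, 7.94% in KM 3 and 7.95% in “0” 4. In the remaining libraries they took from 13.9% to 19.0%. The share of counts in the top 10 genes overlapped between KM and the 8 others (exact two-sided permutation p = 0.279, where the smallest possible p is 0.0121). Results that rest on choroid plexus transcripts are given below with and without KM 3.

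**Figure D1:**
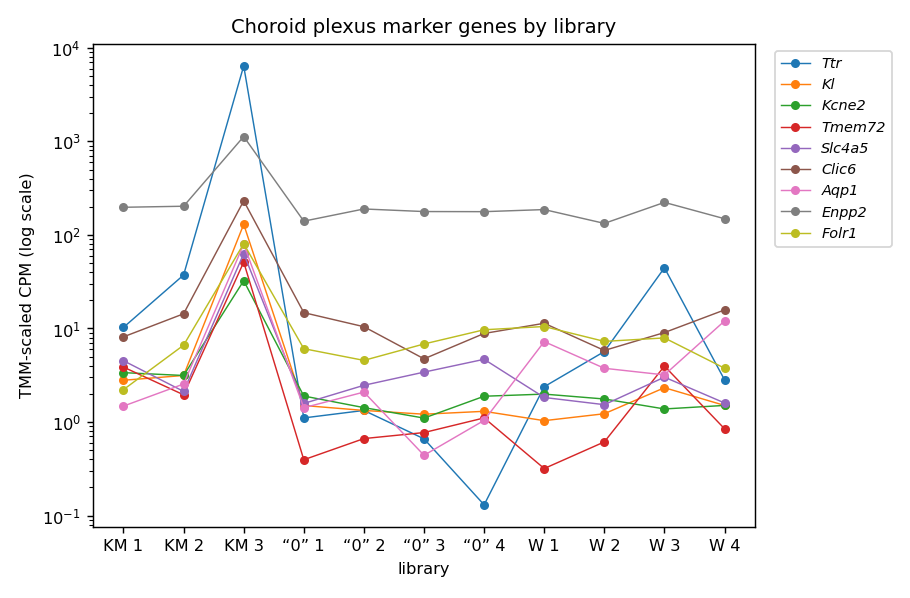
TMM-scaled CPM on a log axis (vertical) of the 9 choroid plexus markers in each of the 11 libraries (horizontal), with points for values and lines that join the values of 1 gene. KM 3 is the highest library for all 9 genes, and Ttr reaches 6417 CPM there.

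The contrast of KM with the mean of both groups called few genes at a strict threshold and many at a lenient one. With the Benjamini-Hochberg adjustment over all genes tested (edgeR QLF test), 6 genes (0.0438%) passed at 0.05, and 5 of these were higher and 1 was lower. At an unadjusted p under 0.05, which the study used, 960 genes (7.01%) passed, 580 higher (4.24%) and 380 lower (2.77%) in KM. The genes that met the rule were 1.76% of those tested (0.884% above and 0.876% below the others), and among genes with a symbol 5.51% lay above and 5.29% below. Of the 241, 199 also had an unadjusted p under 0.05, 102 higher and 97 lower. A symbol was given for 190 (97 higher, 93 lower) and not for 51 (24 higher, 27 lower), and the latter had smaller changes, with medians of 0.29 and -0.29 on the log2 scale beside 0.62 and -0.46 for the named genes. Most changes were modest, with a median absolute log2-fold change of 0.49 and quartiles of 0.31 and 0.71, and 30 genes exceeded a 2-fold change, 20 higher and 10 lower. Of the 121 higher genes, 5 averaged under 1 CPM in the 8 others (Vom2r44, Oas2 and Opn4 among them), and of the 120 lower genes 3 averaged under 1 CPM in KM, so these reached the filter through the libraries in which they were high. For 6 genes the gap between the KM range and the range of the 8 others was at least 1.5-fold.

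The scaling of the libraries decided part of the membership. With library totals only, in place of the TMM factors, 250 genes met the rule, but 125 of the 241 were among them, and the split moved from 121 above and 120 below to 211 above and 39 below. Among the genes described below, Lck, Fhl3, LOC691921, Cpxm1, Kdr, Acsl1, Hras, Maob, Gabbr1, Rasgrf1 and Calr then overlapped with the others. Without the factors the median log2-fold change of all genes was 0.12, a shift of 0.11 from the TMM value of 0.01. DESeq2 size factors kept 232 of the 241.

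The rule removed most of the genes that the contrast called. Of the 960 genes at p under 0.05, 761 overlapped with at least 1 of the 8 others. In 381 of these the KM values were clear of all W values and not of the “0” values, in 131 they were clear of “0” alone, and in 249 they were clear of neither group. Between “0” and W, a comparison that does not use KM, 18 of the 241 genes (7.47%) differed at p under 0.05, beside 6.51% of all genes tested. The median absolute difference between “0” and W was 0.11 on the log2 scale for the 241 genes and 0.15 for all genes, and the requirement that both groups lie on the same side of KM itself favours small values.

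**Figure D2:**
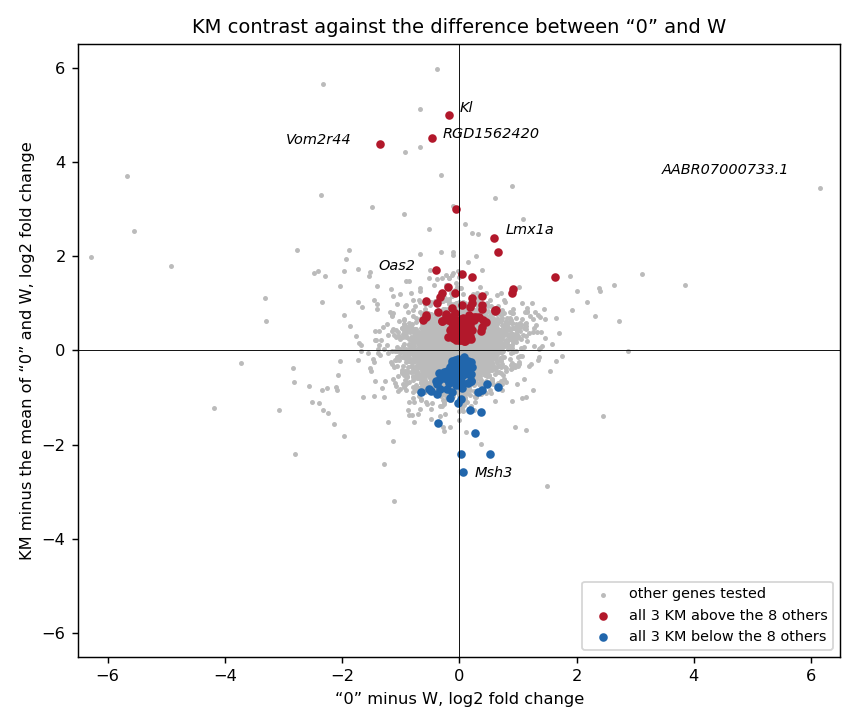
Log2-fold change of KM minus the mean of “0” and W (vertical) against “0” minus W (horizontal) for each gene tested, with the 121 genes above the 8 others in red, the 120 below in blue and the rest in grey, and 7 genes outside the axes not drawn. The coloured genes have a median distance of 0.11 from 0 on the horizontal axis, Anxa9 lies at 1.63 and Vom2r44 at -1.35, and AABR07000733.1 lies far to the right among the grey ones.

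Of the 6 genes with an adjusted p under 0.05, 4 met the rule. RGD1562420, which the study's table names only as similar to a hypothetical protein, gave 16.8, 27.5 and 28.3 CPM in KM. In “0” it gave 0.947, 0.949, 1.54 and 0.325 CPM, and in W 0.954, 1.45, 1.38 and 1.22 CPM. Every KM library exceeded every other library more than 10-fold, and the log2-fold change was 4.50 ± 0.28 (SE, QLF test, adjusted p = 2.81e-05). It kept an adjusted p under 0.05 when any of the 11 libraries was left out.

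Msh3, a mismatch repair protein that recognises insertion and deletion loops, was the gene that fell in this group. It gave 2.88, 1.70 and 0.767 CPM in KM, against 12.2, 11.01, 11.01 and 8.58 CPM in “0” and 9.93, 10.3, 8.87 and 11.7 CPM in W. The 8 others were alike and the highest KM value was below the lowest of them by 1.53 on the log2 scale. The log2-fold change was -2.57 ± 0.33 (SE, QLF test, adjusted p = 0.0210). The call was lost without KM 2 (adjusted p = 0.0664), “0” 2 (0.0780), “0” 3 (0.0645) or W 1 (0.0532).

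Lmx1a, a LIM homeobox factor that specifies midbrain dopamine neurons and the roof plate in the embryo, was higher in KM. It gave 4.85, 3.40 and 8.38 CPM in KM, 1.97, 0.854, 1.54 and 0.845 CPM in “0”, and 0.874, 0.995, 0.603 and 0.940 CPM in W. The highest value was in KM 3, the library with the choroid plexus transcripts, whose part in this result was not tested. The log2-fold change was 2.39 ± 0.32 (SE, QLF test, adjusted p = 0.0223), and without KM 3 it was 1.98 (adjusted p = 0.129). Nr4a2, the other named marker of midbrain dopamine neurons, had a log2-fold change of 1.03 ± 0.47 (SE, unadjusted p = 0.0507, QLF test), which was 1.33 without KM 3 (unadjusted p = 0.0268) and 1.14 with library totals only (unadjusted p = 0.0275). Its KM values overlapped with W. As CPM of the library total, Nr4a2 gave 18.2 and 10.2 in KM 1 and KM 2 and was below Lmx1a in KM 3. It gave from 2.36 to 18.1 in W and from 1.98 to 4.08 in “0”. The adjusted call of Lmx1a was also lost without “0” 2 (adjusted p = 0.0780), “0” 3 (0.0645), “0” 4 (0.0578), W 1 (0.0757) or W 2 (0.0555).

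Vom2r44, a member of the large family of vomeronasal pheromone receptors, gave 5.83, 4.67 and 1.18 CPM in KM. It gave 0, 0.190, 0.220 and 0.0650 CPM in “0” and 0.636, 0.306, 0.0861 and 0.0940 CPM in W, which is at or near the limit of 3 counts. The log2-fold change was 4.37 ± 0.59 (SE, QLF test, adjusted p = 0.0223). The call was lost without “0” 2 (adjusted p = 0.0853), “0” 3 (0.0645), “0” 4 (0.103) or W 2 (0.0580). The gene reached the mean CPM of 1 through the KM libraries, and without KM 1 or KM 2 it fell under that filter and was not tested. As reads of such families can be divided among near-identical copies, the level is uncertain.

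The other 2 genes with an adjusted p under 0.05 did not meet the rule, since KM resembled “0”. AABR07000733.1 gave 4.44, 5.52 and 4.25 CPM in KM and 4.26, 3.23, 4.29 and 2.93 CPM in “0”, but only 2 counts over the 4 W libraries, against 191 over the 3 KM libraries. The ratio of KM to W was 112 (95% exact interval of the counts from 30.6 to 931, counting error only). Rpl30l1, a copy of a ribosomal protein gene, gave 1.97, 2.72 and 2.83 CPM in KM and 5.13, 2.47, 3.74 and 2.93 CPM in “0”, with no count in any W library. Its level in KM was at least 9.95-fold higher than the limit of 3 counts per library in W. When the 8 others were treated as 1 group, neither gene was called (adjusted p = 0.794 and 0.940), and reads of both can be shared with copies. The call of Rpl30l1 (adjusted p = 0.0487, QLF test) was lost in 8 of the 11 fits that left out 1 library, without KM 2, KM 3, “0” 2, “0” 3, “0” 4, W 1, W 2 or W 4, with adjusted p up to 0.151 (without KM 3). It was also lost with DESeq2 size factors (adjusted p = 0.0514), the newer QLF form (adjusted p = 0.0602) and the filterByExpr filter (adjusted p = 0.0508).

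**Figure D3:**
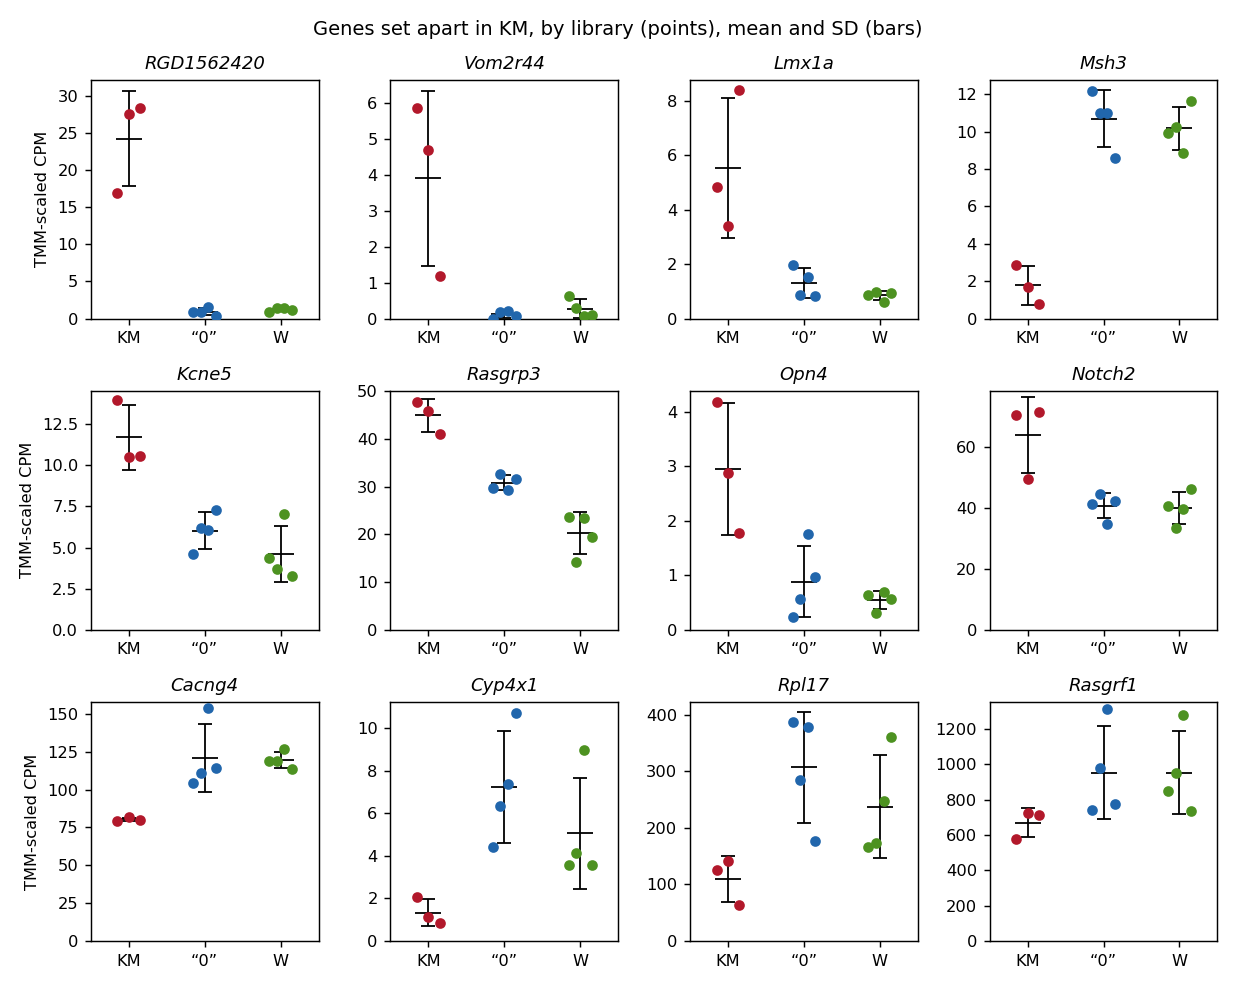
TMM-scaled CPM (vertical, each panel on its own linear axis from 0) of 12 genes in KM, “0” and W (horizontal), with points for libraries and bars for the mean and SD. In every panel the 3 KM points lie on one side of all 8 others, by a wide gap for RGD1562420 and Msh3 and by a narrow one for Opn4 and Rasgrf1.

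Among the genes raised most in KM, 3 were also markers or known products of the choroid plexus. Kl (Klotho, a co-receptor of fibroblast growth factor signalling) gave 2.79, 3.14 and 130 CPM in KM and from 1.03 to 2.33 CPM in the 8 others. Kcne2, an auxiliary potassium channel subunit, gave 3.37, 3.14 and 32.4 CPM in KM and at most 1.99 CPM elsewhere. Ace, the angiotensin-converting enzyme, gave 46.4, 52.4 and 229 CPM in KM and at most 42.3 CPM elsewhere. In all 3 genes KM 3 was far above KM 1 and KM 2, which lay above the highest of the others. The log2-fold changes of 4.99, 2.998 and 1.62 became 1.07 (unadjusted p = 0.00392), 1.01 (unadjusted p = 0.00277) and 0.50 (unadjusted p = 0.0200) in the QLF test without KM 3.

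Opn4, the photopigment melanopsin, gave 4.19, 2.89 and 1.77 CPM in KM, and the highest of the 8 others was 1.76 CPM in “0” 3. The log2-fold change was 2.08 ± 0.43 (SE, unadjusted p = 0.000439, adjusted p = 0.164, QLF test), for a gene that averaged 0.717 CPM in the 8 others and was tested because of its level in KM. Anxa9, an annexin, gave 3.45, 3.57 and 2.54 CPM in KM, with a mean of 1.91 ± 0.34 CPM (SD, n = 4) in “0” and 0.611 ± 0.34 CPM (SD, n = 4) in W. Anxa9 also differed between “0” and W (unadjusted p = 0.00174, QLF test), while its step from “0” to KM did not pass (log2-fold change 0.74, unadjusted p = 0.0768) and that from W to KM was 2.36 (unadjusted p = 0.000103). Stab2, a scavenger receptor of sinusoidal endothelium that takes up hyaluronan, gave 5.83, 4.08 and 3.66 CPM in KM and at most 3.53 CPM in the others, with a log2-fold change of 1.21 ± 0.34 (SE).

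Among the named genes that met the rule, Htra4, Cyp4x1 and Rdh5 had the largest falls after Msh3. Htra4, a secreted serine protease, gave 0.411, 0.510 and 0.649 CPM in KM, and the 8 others ran from 0.861 to 4.29 CPM with a median of 2.55 CPM. Its log2-fold change was -2.21 ± 0.48 (SE). Cyp4x1, a cytochrome P450 of the brain, gave 2.05, 1.10 and 0.827 CPM in KM, and the 8 others ran from 3.57 to 10.7 CPM with a median of 5.39 CPM. Its log2-fold change was -2.20 ± 0.43 (SE). Rdh5, a retinol dehydrogenase of the visual cycle, fell by 1.76 ± 0.41 (SE) on the log2 scale, from 6.89 CPM in the median of the 8 others to 2.04 ± 0.31 CPM (SD, n = 3) in KM. All 3 passed only without adjustment (adjusted p from 0.151 to 0.223, QLF test).

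Lck, a Src family kinase of T lymphocytes, gave 0.575, 0.849 and 1.24 CPM in KM, just under the lowest of the others at 1.26 CPM, with a log2-fold change of -1.53 ± 0.45 (SE). Rpl17, a protein of the large ribosomal subunit, gave 125, 141 and 63.5 CPM in KM and from 166 to 388 CPM in the 8 others. Its log2-fold change was -1.30 ± 0.33 (SE), though reads of ribosomal protein genes can be shared with their processed copies. Ghdc fell by 1.26 ± 0.26 (SE) and LOC691921 by 1.11 ± 0.25 (SE) on the log2 scale. Cdhr1, a photoreceptor cadherin, fell by 1.01, Fhl3 by 0.88, the homeobox gene Mkx by 0.87 and Ramp1, a subunit of the receptor for calcitonin gene-related peptide, by 0.87. Their unadjusted p values ran from 0.000374 to 0.00816 (QLF test), and Mkx lost its call without KM 2 (unadjusted p = 0.0508).

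Type I interferon response genes with a symbol numbered 19, of which 13 were higher in KM and 6 did not pass. In this pathway, interferon binds its receptor, STAT proteins and IRF9 enter the nucleus, and they switch on antiviral effectors. Symbols came from the study's own list of genes, 1759 of which were tested, and 26.3% of these were higher and 19.2% lower in KM at p under 0.05. Counts of a gene list therefore describe named genes and are not independent evidence of its direction. These shares are the background for every list count that follows. Of the 19 interferon genes with a symbol, none was lower at p under 0.05, and 5 lay above all 8 others, as did 5.51% of all named genes and 0.884% of all genes tested. Their median log2-fold change was 0.55, beside 0.12 over all named genes and 0.01 over all genes tested. Without KM 3, 11 were higher, and without any other single library between 10 and 14.

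The effectors and regulators that met the rule were Oas2, Usp18, Herc6, Ifit3 and Dhx58. Oas2, which makes the oligoadenylates that activate RNase L, gave 2.47, 2.97 and 1.89 CPM in KM and from 0.536 to 1.41 CPM in the 8 others, with a log2-fold change of 1.70 ± 0.29 (SE, adjusted p = 0.0927, QLF test). Its mean in the 8 others, 0.750 CPM, was under the filter, which it passed through KM. Ifit3, a binder of viral RNA complexes, gave 4.36, 5.86 and 3.78 CPM in KM and from 0.556 to 3.10 CPM elsewhere. Usp18, the protease that removes ISG15 and damps the receptor, gave 8.38, 6.96 and 6.08 CPM in KM. The highest of the others was 5.86 CPM in W 3, and the remaining 7 gave at most 3.04 CPM. Herc6, a ubiquitin ligase, gave 12.2, 9.17 and 6.26 CPM in KM and at most 6.11 CPM in the others. Dhx58, a helicase that modulates RNA sensing, gave 6.25, 6.88 and 6.26 CPM in KM and at most 5.05 CPM in the others.

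The genes that rose without meeting the rule included the regulators Irf7 and Stat2. Irf7, the factor that amplifies interferon transcription, gave 19.3, 24.97 and 13.7 CPM in KM. It gave 4.89, 6.36, 4.73 and 4.75 CPM in “0” and 5.09, 7.20, 17.1 and 8.55 CPM in W. Only W 3 overlapped with KM. The log2-fold change of Irf7 was 1.46 and that of Bst2, a protein that tethers virus particles to the cell, was 1.01. W 3 gave 3.27 CPM of Oas1a, within the KM range of 2.48 to 4.08 CPM, while the 4 “0” libraries gave at most 1.98 CPM. Mx1, Mx2, Rsad2, Irf9 and Trim25 did not pass (unadjusted p from 0.0541 to 0.911). Rsad2 was lower in KM than in W, at 8.84 ± 2.28 CPM (SD, n = 3) against 14.01 ± 5.50 CPM (SD, n = 4), with a log2-fold change of -0.66 (unadjusted p = 0.0476, QLF test), and higher than in “0” (log2-fold change 0.73, unadjusted p = 0.0339, QLF test). Ifit1 gave 2.86, 3.83, 6.63 and 0 CPM in W. It was at 0 in all 4 “0” libraries and in KM 1 and KM 2, and had 1 count in KM 3 (0.0590 CPM). The gene reached the mean CPM of 1 through the W libraries. Its lower values in KM than in W therefore describe the libraries and are not given as a test.

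**Figure D4:**
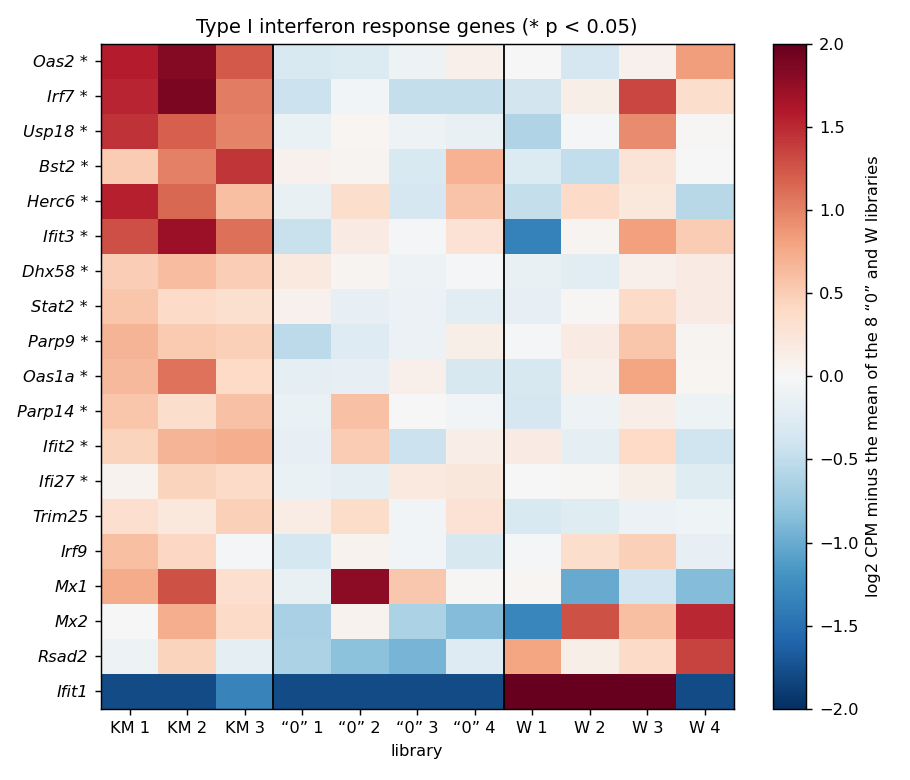
Log2 CPM of the 19 named interferon response genes (vertical) in each library (horizontal), as the difference from the mean of the 8 “0” and W libraries, with colours held at 2 in either direction and a star for p under 0.05. The 3 KM columns are mostly red for the 13 starred genes, though KM 1 is near white for Ifi27, and W 3 is red for Irf7, Usp18 and Oas1a.

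The promoters of these genes are shown because a pair of half-sites for interferon regulatory factors is the element through which interferon is known to act. Each line gives the 150 bases before the start site, from RefSeq on the build GRCr8, 5′ to 3′ on the strand of the gene, and capitals mark 2 copies of GAAA with any 2 bases between them, or 2 copies of its reverse complement TTTC with the same spacing, searched with overlaps allowed. Ifit3 and Herc6 met the rule, and Irf7, Bst2 and Oas1a rose without meeting it.
Ifit3 (chr1:241527176-241527325, + strand): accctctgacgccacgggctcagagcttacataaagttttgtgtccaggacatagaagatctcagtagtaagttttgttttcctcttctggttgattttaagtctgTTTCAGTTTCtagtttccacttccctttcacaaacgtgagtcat
Herc6 (chr4:88896994-88897143, - strand): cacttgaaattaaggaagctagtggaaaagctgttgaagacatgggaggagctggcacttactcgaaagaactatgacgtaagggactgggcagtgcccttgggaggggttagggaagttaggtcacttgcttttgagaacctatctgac
Irf7 (chr1:205800024-205800173, - strand): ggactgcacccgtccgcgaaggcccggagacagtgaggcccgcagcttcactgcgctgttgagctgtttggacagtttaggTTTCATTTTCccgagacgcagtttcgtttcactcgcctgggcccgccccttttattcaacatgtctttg
Bst2 (chr16:18254968-18255117, - strand): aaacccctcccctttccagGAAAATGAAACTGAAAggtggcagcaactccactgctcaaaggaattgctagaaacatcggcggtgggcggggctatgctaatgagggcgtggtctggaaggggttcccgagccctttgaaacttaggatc
Oas1a (chr12:41330316-41330465, + strand): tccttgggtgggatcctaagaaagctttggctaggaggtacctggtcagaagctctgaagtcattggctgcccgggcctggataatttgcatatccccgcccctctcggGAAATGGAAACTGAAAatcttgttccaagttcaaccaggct

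The table held 1 promoter for 9 of the 13 genes that rose, and 6 of these (Irf7, Bst2, Ifit3, Oas1a, Parp14 and Ifi27) held a match in the window. Bst2 and Oas1a each held a pair of overlapping matches. Herc6, Stat2 and Parp9 held none in these 150 bases. Among the 4 list members that did not pass and had an entry (Trim25, Irf9, Mx1 and Rsad2), Rsad2 held a match. Of all 33469 promoters in the table, 2.05% held a match in the same window, and of the 141 reported genes with 1 entry, 5 did (3.55%). A match describes the sequence and not a site that is used.

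The mitogen-activated protein kinase (MAPK) pathway was described by 17 named members. In this cascade, exchange factors load Ras with GTP, Ras recruits Raf, and MEK and ERK carry the signal on. Of the 17, 10 were higher and 3 lower in KM at p under 0.05, with a median log2-fold change of 0.38. Among all named genes 26.3% were higher and 19.2% lower, so the lower count was no more than the background share. The lower count was 1 without KM 1 or KM 2. With library totals only, 11 were higher and none was lower. Without KM 3, 7 were higher and 2 lower.

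Among the Ras activators, Rasgrp3 was higher in KM. It gave 47.7, 45.9 and 41.1 CPM in KM, 29.8, 32.7, 29.3 and 31.5 CPM in “0” and 23.7, 14.2, 23.5 and 19.5 CPM in W. The groups were stepped with no overlap, and “0” exceeded W (unadjusted p = 0.00225, QLF test). The log2-fold change of KM was 0.85 ± 0.14 (SE, adjusted p = 0.0927, QLF test). Rasgrf1, a neuronal exchange factor that calcium activates, was lower, with 575, 723 and 714 CPM in KM and from 735 to 1317 CPM in the others. Its log2-fold change was -0.51 ± 0.21 (SE, unadjusted p = 0.0328, QLF test), which was lost without KM 1 (unadjusted p = 0.127), KM 2, KM 3, “0” 2 or W 3 and with library totals only (unadjusted p = 0.0680), where it also overlapped with the others. Rasgrp2, a calcium-responsive activator of Rap1, gave 16.4, 33.3 and 39.8 CPM in KM and from 27.8 to 73.2 CPM in the others, so that KM 1 was the lowest library and KM 2 and KM 3 overlapped with the others, and fell by 0.81 ± 0.33 (SE) on the log2 scale, which was lost without KM 1 (unadjusted p = 0.147), KM 2 or “0” 3 and with library totals only (unadjusted p = 0.0659).

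The Ras proteins themselves diverged. Nras gave 16.0, 12.9 and 15.1 CPM in KM and from 8.68 to 12.6 CPM in the others, with a log2-fold change of 0.42 ± 0.14 (SE, unadjusted p = 0.0122, QLF test), and lost its call without KM 1 (unadjusted p = 0.0601). Hras gave 53.9, 58.8 and 60.5 CPM in KM and from 63.5 to 86.5 CPM in the others, with a log2-fold change of -0.37 ± 0.12 (SE, unadjusted p = 0.00947, QLF test). With library totals only, Hras no longer passed (unadjusted p = 0.0812). Kdr, a receptor of vascular endothelial growth factor, gave 22.5, 23.0 and 27.0 CPM in KM and at most 22.4 CPM in the others. Kdr is also a marker of endothelium, and the 7 named endothelial and mural markers had a median log2-fold change of 0.19, with 2 higher and 1 (Acta2) lower at p under 0.05. Without KM 3, Acta2 did not pass. Downstream, Gadd45g, a stress sensor that activates the p38 and JNK branches, gave 7.31, 6.54 and 7.32 CPM in KM and from 2.64 to 5.89 CPM in the others (log2-fold change 0.65 ± 0.23, SE).

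In the major histocompatibility complex, KM stood apart from both groups in few genes. Of 10 named members of antigen presentation, 4 were higher and 2 lower at p under 0.05, and when 1 library was left out the counts ran from 2 to 5 higher (2 without KM 2, KM 3, “0” 3, W 1 or W 2) and from 1 to 2 lower. RT1-T24-1, a class I gene, gave 3.20, 3.23 and 2.60 CPM in KM and at most 2.47 CPM in the others, and Calr, the chaperone calreticulin, gave 497, 587 and 620 CPM in KM and at least 630 CPM in the others. The log2-fold change of Calr was -0.30 ± 0.13 (SE, unadjusted p = 0.0357), lost without KM 1 (unadjusted p = 0.162), KM 2, W 1, W 3 or W 4. With library totals only it was -0.18 (unadjusted p = 0.148), and KM overlapped with the others. The classical genes RT1-A1 and RT1-A2 had adjusted p values of 0.0571 and 0.0927 in the contrast (QLF test), but neither met the rule. RT1-A1 gave 90.5, 104 and 107 CPM in KM and 83.2, 92.5, 105 and 106 CPM in “0”, against 10.3 to 23.5 CPM in W. KM and “0” overlapped and W alone was apart, and reads of these alleles can be divided among loci.

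The list of voltage-gated channels and their auxiliary subunits held 9 named genes. Of these, 4 were lower and 2 (Kcne5 and the choroid plexus marker Kcne2) higher at p under 0.05, with a median log2-fold change of -0.33. The higher count was no more than the background share of 26.3%, and that for lower genes was 19.2%. Cacng4, an auxiliary subunit that regulates AMPA receptors and calcium channels, gave 79.5, 81.7 and 79.6 CPM in KM and from 105 to 154 CPM in the others, with a log2-fold change of -0.58 ± 0.12 (SE, adjusted p = 0.164, QLF test). Kcne5, a subunit that restrains potassium channels, gave 13.97, 10.5 and 10.6 CPM in KM and from 3.29 to 7.28 CPM in the others, with a log2-fold change of 1.15 ± 0.23 (SE). Without KM 3 their log2-fold changes were -0.56 and 1.24. The lower count was 1 with library totals only, 2 without KM 1, without KM 3 or without “0” 2, and 2 with a replicate block.

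Transmitter genes with a symbol were few. Gabbr1, a subunit of the GABA-B receptor, gave 1384, 1510 and 1558 CPM in KM and from 1696 to 2214 CPM in the others, and the log2-fold change was -0.33 ± 0.12 (SE, unadjusted p = 0.0223, QLF test). Gabbr1 lost its call without KM 1 (unadjusted p = 0.0859) or KM 2, with library totals only (unadjusted p = 0.146) and with a replicate block (unadjusted p = 0.0539). Of 7 named monoamine genes, 1 (Lmx1a) was higher and 4 were lower, a lower count that ran from 1 (without KM 1) to 4 when 1 library was left out and was 2 with library totals only. Among the latter, Maob, which breaks down monoamines, gave 67.5, 72.7 and 73.9 CPM in KM and from 75.2 to 92.6 CPM in the others, and its log2-fold change of -0.24 ± 0.09 (SE, unadjusted p = 0.0205, QLF test) was lost without KM 1 (unadjusted p = 0.0810) or KM 2 and with library totals only (unadjusted p = 0.322). The receptors Htr3a, Adra1b and Drd2 fell by 1.13, 0.94 and 0.96 on the log2 scale and overlapped with the others. The 2 named glutamate genes, Grik5 and Dlg4, did not pass (unadjusted p = 0.0785 and 0.0897).

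**Figure D5:**
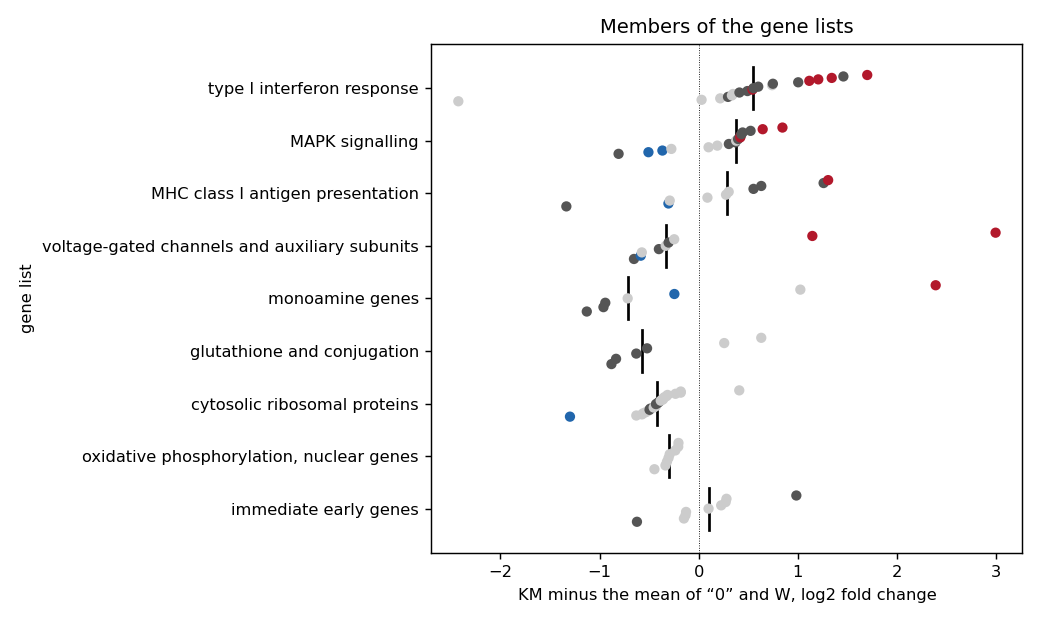
Log2-fold change of KM minus the mean of “0” and W (horizontal) for the named members of 9 gene lists (vertical), with a bar for the median. Red and blue points lie above or below all 8 others, dark grey points have p under 0.05 with overlap, and light grey points do not pass. The bar of the interferon list lies at 0.55, and 18 of its 19 members are above 0.

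Among the named members of the Notch and transforming growth factor beta lists, 1 gene met the rule. Notch2, a receptor that holds progenitors and glia in an undifferentiated state, gave 70.3, 49.3 and 71.4 CPM in KM and from 33.5 to 46.2 CPM in the others. Its log2-fold change was 0.66 ± 0.14 (SE, unadjusted p = 0.000457, QLF test). The Notch target Heyl and the modifier Lfng were lower, by 0.82 and 0.37 on the log2 scale, with overlap, and of the 5 named Notch genes 1 was lower without KM 1, KM 2 or KM 3 and 4 were without “0” 4. Of the 3 named members of the transforming growth factor beta pathway, Smad7 was higher (log2-fold change 0.38), and none passed without KM 3.

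Metabolic groups gave few genes that met the rule. Acsl1, which activates long-chain fatty acids, gave 81.0, 69.6 and 73.2 CPM in KM and from 50.5 to 66.9 CPM in the others (log2-fold change 0.33 ± 0.10, SE). None of the 6 named genes of glutathione and conjugation met it, although Gstm1, Sult1a1, Gpx7 and Gpx3 were lower at p under 0.05, a count that fell to 2 with library totals only or without KM 2 and to 1 without KM 1. None of 8 named nuclear genes of oxidative phosphorylation passed at p under 0.05, and all 8 log2-fold changes were negative, with a median of -0.30. Without “0” 4, 6 of the 8 were lower. Of 24 named ribosomal protein genes, 6 were lower and none was higher, and Rpl17 alone met the rule. The lower count was 2 without KM 1 or KM 3 and 20 without “0” 4. Of 4 named DNA repair genes, Msh3 and Mgmt were lower and Lig4 was higher, and Msh3 alone met the rule. Lig4 did not pass without KM 1 or KM 2. Of 9 immediate early genes, Nr4a1 was higher and Egr1 lower, with overlap, while Fos did not pass (log2-fold change 0.27, unadjusted p = 0.260). The 2 reference groups were apart in this list. The mean log2 CPM of its 9 genes was from 3.45 to 3.61 in “0” and from 4.26 to 4.69 in W. In KM it was 4.45, 4.19 and 3.53. Nr4a1 did not pass without KM 1 or KM 2. Egr1 did not pass without KM 2, KM 3, “0” 2, “0” 3, W 2, W 3 or W 4. With library totals only it did not pass either (unadjusted p = 0.0697, QLF test). Without KM 3, Fos passed (0.57, unadjusted p = 0.0150) and Egr1 did not (from -0.62 to -0.32, unadjusted p = 0.225). Pmaip1 and Aifm1 were higher among the 3 named apoptosis genes, and neither passed without KM 3.

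Of 20 listed genes that the study discusses, 14 had a symbol and were tested. All 14 had p under 0.05 in the contrast and 6 met the rule: Msh3, Rasgrp3, Kcne2, Kcne5, Cacng4 and Gadd45g. Symbols came nearly all from genes that the study lists as differing, which favours such a count beforehand. The study chose these genes on the same samples, so their count is not independent evidence. Apart from the sequencing, the study measured Msh3, Ttr, Acsm5, Kcne2, Kcne5 and Cacng4 by quantitative PCR in larger groups of rats. For these it reported the differences of KM from W and a trend in “0” back towards W. Acsm5, an enzyme that activates medium-chain fatty acids, gave 2.30, 1.27 and 3.13 CPM in KM and 16.3, 28.6, 30.8 and 37.6 CPM in “0”. In W it gave 14.2, 11.1 and 13.3 CPM in 3 libraries and 1.55 CPM in W 3, which lay inside the KM range. Its log2-fold change was -2.89 ± 0.58 (SE, adjusted p = 0.151, QLF test). Gstm1, a glutathione transferase, gave 134, 168 and 132 CPM in KM, and “0” 4 alone overlapped, at 155 CPM. Cd14, a co-receptor for lipopolysaccharide, gave 3.53, 4.59 and 6.91 CPM in KM and 5.45, 3.89, 6.16 and 5.27 CPM in “0”, and W was lower, at 1.99 to 2.84 CPM. Igfbp5, which binds insulin-like growth factors, was lower in KM than in W (log2-fold change -0.90, unadjusted p = 0.00473), and its values overlapped with “0” (log2-fold change -0.23, unadjusted p = 0.388, QLF test). Atf4 and Gadd45b, factors of the stress response, were higher by 0.37 and 0.43 on the log2 scale, each with overlap. Cd14 (unadjusted p = 0.362), Atf4 (unadjusted p = 0.118), Gadd45b (unadjusted p = 0.107) and Igfbp5 (unadjusted p = 0.0780) all lost their calls without KM 3, and each also without at least 1 other library.

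At the edge of the rule the margins were small. The 3 named genes at p under 0.01 just inside were Opn4, Kdr and Cpxm1, a carboxypeptidase-like protein, with gaps of 0.0073, 0.0099 and 0.0134 on the log2 scale between the KM range and that of the others. The 3 just outside were Pkp4, Oscp1 and Itih3. KM 3 gave 712.6 CPM of Pkp4, a junction protein, and “0” 2 gave 713.0 CPM. For Itih3, a protein that stabilises the hyaluronan matrix, KM 2 gave 683 CPM and W 4 gave 679 CPM. Membership at this edge rests on differences below the spread within groups.

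Of the 43 named markers of cell types and regions, 24 passed at p under 0.05, 9 of them of the choroid plexus. The 7 named erythrocyte genes had a median log2-fold change of -0.38 and none passed. Their summed level was 2744, 2744 and 1555 CPM in KM, from 1054 to 1852 CPM in “0” and from 2474 to 6099 CPM in W, with Hba-a2 the most abundant in every library. Among 4 microglia and macrophage markers, Tmem119, Lyz2 and Cd14 were higher and C1qc lower (1 higher and none lower without KM 3), and the summed level was 69.1, 61.7 and 85.9 CPM in KM and from 48.0 to 62.4 CPM in the others. Among 6 astrocyte markers, S100b was higher and Aldh1l1 and Agt were lower, with Aldh1l1 below all 8 others, and 1 of the 6 was lower without KM 1, KM 2, “0” 3, “0” 4, W 2 or W 3. Without KM 3, S100b did not pass (unadjusted p = 0.0698) and Gfap was higher (log2-fold change 0.45, unadjusted p = 0.0498, QLF test). Among 3 oligodendrocyte markers Ermn was higher, and none was without KM 2. Aldh1l1 and Agt did not pass with library totals only (unadjusted p = 0.0628 and 0.113).

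The markers of neurons, forebrain cortex, cerebellum and pineal gland had no symbol in the table, and Pou4f1, a homeobox factor, was the only named marker of the tectum and midbrain. It gave 0.0822, 0.170 and 1.18 CPM in KM and from 0.237 to 2.76 CPM in the others, and KM 1 and KM 2 were the lowest libraries. The log2-fold change was -1.63 ± 0.74 (SE, unadjusted p = 0.0486, QLF test). It was -3.57 without KM 3 (unadjusted p = 0.00331), and the call was lost without any of KM 1, KM 2, “0” 2, “0” 3, “0” 4, W 1, W 2 or W 3 and with library totals only (unadjusted p = 0.0720). With 1 marker at this level the labelled tissue could not be checked. Of 2 thalamic and pretectal markers, Lef1 was lower (log2-fold change -0.72, unadjusted p = 0.0318), which was lost without KM 2, KM 3 or “0” 2, and Prkcd did not pass (log2-fold change 0.995, unadjusted p = 0.0612), though it did without KM 3 (unadjusted p = 0.0384). Dnah11, a dynein of motile cilia and the 1 named marker of ependyma, was higher (log2-fold change 0.67 ± 0.24, SE, unadjusted p = 0.0181), at 0.97 without KM 3 (unadjusted p = 0.00107), and did not pass without KM 1 or KM 2. Slc22a6, the 1 named marker of meninges, did not pass (log2-fold change -1.34, unadjusted p = 0.0626). The part of such differences in cell type or region in the results above was not tested. Fewer cells of a type and less RNA per cell cannot be told apart in these libraries.

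Neighbouring genes were looked for among the reported ones. In the RefSeq order of protein-coding genes on the build GRCr8, 29 of 185 placed reported genes (15.7%) had another reported gene within 10 genes, and so did 263 of 1509 other named genes (17.4%). Msh3 and Zfyve16, an endosomal adaptor that lies 4 genes away, moved in opposite directions (log2-fold changes of -2.57 and 0.75). Apoe and Apoc1, neighbouring apolipoprotein genes, both lay below the 8 others, with log2-fold changes of -0.37 (unadjusted p = 0.0322) and -0.89 (unadjusted p = 0.0575, QLF test).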

How the data were processed

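Poly(A) RNA of the corpora quadrigemina of 11 male rats was read as 75-bp single-end libraries, 1 per rat. Per the study's methods and labels, the authors trimmed reads (Trimmomatic), mapped them to Rnor_6.0 (STAR) and counted them per gene (HTSeq), and deposited whole-number counts without normalization. The tools' versions are not given in the sources used here. Counts per library ran from 10545964 to 15140180, and a gene with 3 counts in a library has 0.198 to 0.284 CPM. Groups came from the sample titles.

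Genes whose CPM averaged 1 or more were tested with R 4.3.3 and edgeR 4.0.16 (TMM factors, original form of the QLF test, all 11 libraries, groups KM, “0” and W, contrast KM minus the mean of the other 2). P-values were adjusted over all genes tested (Benjamini-Hochberg), and they measure the spread between rats. CPM values are TMM-scaled, and log2 CPM used a prior count of 2. The procedure was tested on simulated data.

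Symbols came from the study's supplementary gene table, which names 1763 of 32883 identifiers, nearly all of them genes that it lists as differing. Its fold changes and p-values were not used. The members, gene lists and rules were chosen with earlier results of these data known. Genes named in the text were all with an adjusted p under 0.05, the 12 with the largest change in each direction at p under 0.01 that met the rule, list members at p under 0.05 that met it, the genes that the study discusses, and 3 on either side of the edge of the rule. Zfyve16, Apoe, Apoc1, Irf7, Stat2, Bst2, Oas1a and the overlapping list members were named after their values were seen. Alternatives were DESeq2 size factors, library totals, the DESeq2 1.42.0 Wald test, the newer QLF form, other filters, pooling of the 8 others, a replicate block and leaving out each library. No 2 libraries of the same group agreed within sampling noise. Of the list members, 1 is not reported here.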

Additional observations from a re-analysis of the deposited data

Results flagged for a closer look

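Among 108 groups of 4 libraries (the “0” and W values of 54 named genes), 2 held a library whose distance from the nearest other was above Dixon's 95% limit for 4 values (as a ratio of that distance to the range), where chance gives about 1 in 20. Both were in W 3. Ttr gave 44.5 CPM in W 3, against 2.38, 2.82 and 5.67 CPM in the other W libraries (ratio 0.922). Cyp4x1 gave 8.96 CPM in W 3, against 3.57, 3.58 and 4.13 CPM in the others (ratio 0.895). KM has 3 libraries and was not examined in this way.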

How the results depend on the processing

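Among the 54 genes named by rule no log2-fold change turned under any alternative tried, while the choroid plexus markers Folr1 and Aqp1, outside that rule, turned to -0.66 and -0.49 without KM 3. Of 592 pairs of a named gene and a left-out library 41 lost an unadjusted p under 0.05, while 18 of 429 pairs with another setting did. The number of genes with an adjusted p under 0.05 (6) was 16 without a filter on low counts, 59 in the DESeq2 Wald test and 14 at an adjusted p under 0.10, and it ran from 2 to 15 when 1 library was left out. The number at an unadjusted p under 0.05 (960) was 243 at p under 0.01 and ran from 678 to 1387 when 1 library was left out. The Wald test called 496 higher and 500 lower, and library totals only called 861 higher and 125 lower. The number of genes that met the rule (241) was 6 with a gap of at least 1.5-fold and 4 with an adjusted p under 0.05, and it ran from 264 to 841 when 1 library was left out, as fewer libraries have to be apart. Of the 199 reported genes with p under 0.05, 136 kept it without KM 1, 153 without KM 2 and 152 without KM 3. With library totals only, 150 kept it. With the replicate numbers as a block, 4 genes had an adjusted p under 0.05 and 907 an unadjusted one. RGD1562420 had an adjusted p of 0.000848 there, Msh3 of 0.0708, Lmx1a of 0.200, Vom2r44 of 0.0918 and Rpl30l1 of 0.485. The numbers did not pair the rats, since the correlation of same-numbered deviations averaged 0.120 for KM and “0”, -0.048 for KM and W and 0.008 for “0” and W. List counts under every setting were added after the data were seen. The choroid plexus count (9) was 3 in the Wald test, which left some members without a p-value, and the interferon count (13) ran from 10 to 15. Genes under about 1 CPM rest on few reads, so their absence from the reported set cannot be read. The cause of these changes was not tested.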

Other observations

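The following are reported genes outside the gene lists, chosen after their values were seen, so that KM lies outside the 8 others in each by the choice itself. Helz2, a helicase that interferon induces, gave 10.4, 6.37 and 6.55 CPM in KM and from 2.09 to 5.68 CPM in the 8 others, with a log2-fold change of 1.05 ± 0.24 (SE, adjusted p = 0.218, edgeR QLF test). Tlr3, the endosomal sensor of double-stranded RNA, gave 8.22, 8.49 and 10.3 CPM in KM and from 2.02 to 6.52 CPM in the others, with a log2-fold change of 1.01 ± 0.26 (SE). Slfn5 and Sp110, both interferon-inducible, had log2-fold changes of 0.68 ± 0.19 and 0.48 ± 0.15 (SE).

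Asic1, an acid-sensing channel subunit, gave 88.1, 120 and 122 CPM in KM and from 130 to 157 CPM in the others, with a log2-fold change of -0.39 ± 0.12 (SE). Slc7a11, the cystine transporter that feeds glutathione synthesis, gave 24.7, 23.6 and 23.6 CPM in KM and from 32.0 to 50.3 CPM in the others, with a log2-fold change of -0.65 ± 0.16 (SE). Gli1, a target and effector of Hedgehog signalling, gave 9.70, 8.75 and 5.73 CPM in KM and from 11.05 to 15.1 CPM in the others. Each of these genes passed at an unadjusted p under 0.05 and none at an adjusted p under 0.05 (edgeR QLF test).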
